A study of Homo sapiens with 6 samples.

Results

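The genes described here are those of glycolysis and of the cellular response to low oxygen, the hypoxia response. They were chosen by name: 34 gene symbols were looked up in the table of RNA-seq counts, and 33 of the 34 were found among its 12768 genes, while EGLN2 was not analysed here. The samples are cultures of LNCaP, an established human line of luminal prostate cancer cells that carries the androgen receptor, with a stably integrated plasmid from which doxycycline switches on a short hairpin RNA against PRMT5, an enzyme that dimethylates arginines symmetrically. All 6 cultures carried the plasmid and grew in RPMI medium with serum. In the knockdown group, 3 cultures received doxycycline for 4 days, and in the no-knockdown group, 3 cultures were kept for the same 4 days without it, so the hairpin and the drug itself cannot be told apart in any difference given here. The labels call the 3 cultures of a group biological replicates, name no oxygen level and describe no culture with doxycycline and another hairpin.

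Glycolysis turns glucose into pyruvate. Hexokinases trap glucose, phosphofructokinase commits it to the pathway, and the later enzymes recover ATP before lactate dehydrogenase turns pyruvate into lactate. When oxygen is plentiful, the prolyl hydroxylases of the EGLN family mark the HIF alpha proteins and VHL sends them to be degraded, while in low oxygen HIF alpha pairs with ARNT and switches on genes for glycolysis, blood vessel growth and collagen synthesis. Because HIF alpha is regulated mainly as a protein, its mRNA level is not a measure of its activity.

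The libraries held between 7911853 and 15831938 counted reads. PRMT5 itself read 87.8 ± 4.64 CPM (counts scaled to the library by the TMM method, as edgeR's CPM, mean ± SD, n = 3) without knockdown and 10.4 ± 0.60 CPM with it, a log2 fold change of -3.08 (edgeR adjusted p = 1.37e-07). All 11 luminal prostate markers looked for were in the table, from STEAP2 at 3944 CPM to KLK2 at 18.2 CPM in the mean without knockdown. Of the markers of other cell types, COL1A1, DCN, LUM, CD68, VWF, SYP and ENO2 were in the table. ENO2, an enolase that is also on the list of other glycolysis genes used below, stood at 100.1 CPM in that mean. The others stood between 1.48 and 21.3 CPM, and the rest of those markers were not analysed here.

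Some genes of the upstream steps of glycolysis and of oxygen sensing read lower in every knockdown culture. HK2, PFKM, PFKP and PFKFB2 stood after knockdown at 71.6% to 81.4% of their level without it, the HIF partner ARNT at 82.2% and the oxygen sensor EGLN1 at 81.5%, and in all 6 genes every knockdown culture lay below every no-knockdown culture. EPAS1 and EGLN3, both of the oxygen-sensing pathway, had higher means after knockdown. The groups overlapped for EGLN3 and did not for EPAS1, which rests on 27 to 137 reads a library. The 5 enzymes from GAPDH to PKM had log2 fold changes between 0.02 and 0.23, and the difference between upstream and downstream steps was not tested.

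None of these differences passed the test across all genes that compares the 2 groups without regard to replicate number. That test, edgeR's quasi-likelihood test with Benjamini-Hochberg adjustment over 12768 genes and a threshold of 0.05, called 0 of the 33 genes, against 1.14% of all genes lower and 0.337% higher after knockdown. At an unadjusted p under 0.05 it held 7 of the 33 lower and 1 higher, or 24.2% in all against 14% of all genes. Over all genes, cultures with the same number deviated from their group means together, with correlations of 0.339, 0.453 and 0.169 for numbers 1, 2 and 3. Cultures 1 and 3 of opposite groups did so as well, at 0.232 and 0.199, above the value for number 3. A fit that takes the replicate number as a block called 8 of the 33. In that fit HK2, PFKM, PFKP, PFKFB2, ARNT and EGLN1 fell (18.2% of the 33, against 5.1% of all genes) and EPAS1 and EGLN3 rose (6.06%, against 3.21%). The number called moved with the cultures left out, for all genes as for these. Without the pair of number 1 the fit with the block called 3 of the 33 (HK2, PFKP and EPAS1, 9.09%, against 3.56% of all genes in either direction). Without pair 3 it called 2 (PFKFB2 and EPAS1, 6.06%, against 3.11%). Without pair 2 it called 12 (36.4%, against 18.7%), with ALDOA, PDK1 and VEGFA also lower, PGK1 and LDHA higher, and EPAS1 no longer called. In the fit without the block, leaving out no-knockdown culture 2 brought in EGLN1, where 2.11% of all genes were called, and leaving out knockdown culture 2 brought in PFKP and PFKFB2, where 3.49% were. Leaving out no-knockdown culture 1 or 3 or knockdown culture 1 or 3 brought in none, with 0.407%, 0.227%, 0.188% and 0.235% of all genes called. The authors' deposited table, which gives their own FDR, held HK2, PFKFB2, ARNT and EGLN1 as lower, or 12.1% of the 33 against 2.68% of all genes, and none of the 33 as higher, against 1.02%. In 10 of the 33 genes (30.3%) all 3 knockdown cultures lay below all 3 no-knockdown cultures, against 11.6% of all genes, and in 1 (3.03%) they lay above, against 8.22%. The log2 fold changes of the 33 also had smaller standard errors than those of all genes. Their median was 0.0845 against 0.111 without the block and 0.0718 against 0.0915 with it. What part this has in the shares given here was not tested. The median log2 fold change of the 33 was -0.0431, beside -0.0021 for all genes, and 21 of the 33 moved by less than 0.2 in either direction.

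**Figure D1:**
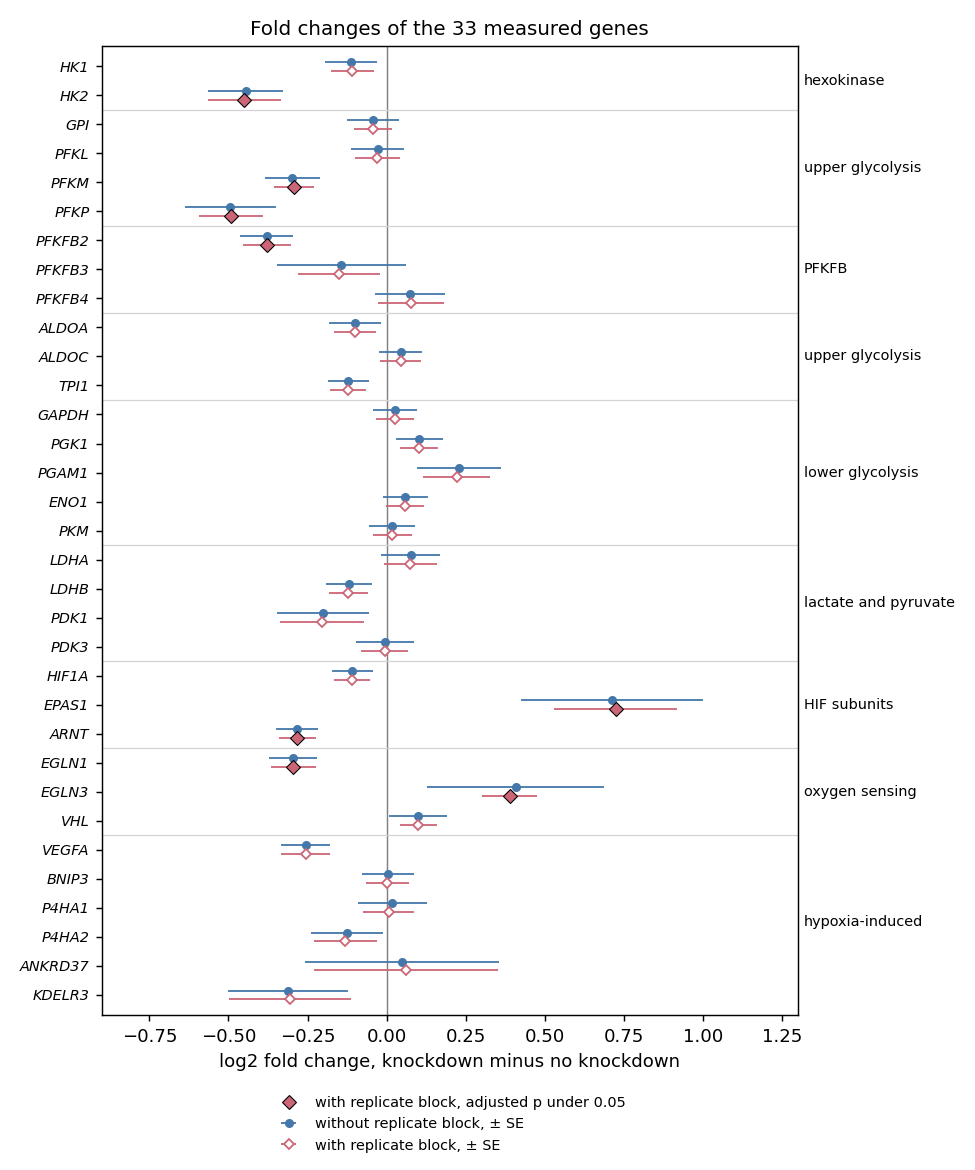
Log2 fold change of each of the 33 genes, knockdown minus no knockdown, with its standard error, from the fit without (circles) and with (diamonds) the replicate block. Filled diamonds mark the 8 genes with an adjusted p under 0.05 in the fit with the block, 6 to the left of 0 and 2 to the right, while the 5 genes of lower glycolysis all sit to the right of 0.

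To show what these genes carry at their starts, RefSeq windows of 300 bases (GRCh38.p14, 250 bases before the transcription start to 50 after) were searched for ACGTG, the core of the site that HIF reads, on both strands. The G form of its first base was not searched, and a CACGTG, the E-box that MYC and related factors also read, counts on both strands. The core lay in at least 1 window of 18 of the 30 genes with a window, or 60.0%. It also lay in at least 1 window of 32.9% of the 9454 genes of the table with a window. Over all 35116 RefSeq windows, not limited to genes of the table, 21.4% held it. PFKFB2, VHL and VEGFA have no entry. Shown here are 2 genes that fell in the fit with the block (HK2, its second listed start, and EGLN1) and 2 that did not (LDHA and PGK1), each 5′ to 3′ on the gene's strand, with the core or an E-box in capitals. They lie at chr2:74834920-74835219 (HK2, plus strand), chr1:231422238-231422537 (EGLN1, minus strand), chr11:18394313-18394612 (LDHA, plus strand) and chrX:78103998-78104297 (PGK1, plus strand).
HK2: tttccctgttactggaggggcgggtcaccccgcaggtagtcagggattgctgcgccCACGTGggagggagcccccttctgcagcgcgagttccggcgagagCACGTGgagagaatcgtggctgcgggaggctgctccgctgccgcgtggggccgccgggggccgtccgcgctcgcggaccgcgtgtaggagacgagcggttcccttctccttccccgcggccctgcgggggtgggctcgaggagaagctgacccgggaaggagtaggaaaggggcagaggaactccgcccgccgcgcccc
EGLN1: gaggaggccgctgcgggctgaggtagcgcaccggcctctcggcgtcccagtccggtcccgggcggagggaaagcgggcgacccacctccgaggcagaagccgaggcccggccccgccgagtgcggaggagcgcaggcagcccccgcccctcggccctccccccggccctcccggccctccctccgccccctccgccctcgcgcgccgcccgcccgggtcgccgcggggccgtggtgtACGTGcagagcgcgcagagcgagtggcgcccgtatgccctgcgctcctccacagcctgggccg
LDHA: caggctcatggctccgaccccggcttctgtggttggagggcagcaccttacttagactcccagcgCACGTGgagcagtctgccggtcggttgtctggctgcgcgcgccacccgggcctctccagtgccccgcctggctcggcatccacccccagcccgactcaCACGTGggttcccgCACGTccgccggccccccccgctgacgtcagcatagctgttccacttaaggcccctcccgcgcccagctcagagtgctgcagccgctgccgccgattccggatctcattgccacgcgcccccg
PGK1: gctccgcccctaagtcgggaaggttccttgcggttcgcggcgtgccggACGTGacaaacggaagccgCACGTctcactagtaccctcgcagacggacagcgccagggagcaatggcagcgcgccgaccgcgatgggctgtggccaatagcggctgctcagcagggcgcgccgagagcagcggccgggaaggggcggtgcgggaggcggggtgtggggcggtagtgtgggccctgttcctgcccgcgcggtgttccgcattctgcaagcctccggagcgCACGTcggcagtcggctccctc
The core matched 4 times in HK2, 1 time in EGLN1, 5 times in LDHA and 3 times in PGK1, counted over both strands. Genes with the core were found among those that fell with the block (HK2, PFKM, PFKP, EGLN1) and among those that passed in neither fit of all 6 cultures (such as LDHA, PGK1, GAPDH and ALDOA), and ARNT, EPAS1 and EGLN3 had none in their windows. A match is a run of letters and does not show binding.

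Positions are those of GENCODE 29 on GRCh38. In each run of 6 values that follows, CPM is given for no-knockdown cultures 1, 2 and 3 and then for knockdown cultures 1, 2 and 3.

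The hexokinases trap glucose as glucose 6-phosphate. HK1 supplied most of this step in the transcript pool: per length it stood at 35.2 RPKM (CPM per kilobase) in the mean without knockdown, and HK2, the isozyme often raised in tumours, at 2.83 RPKM. HK2 (chr2:74833981-74893359, plus strand) read 18.6, 20.7 and 20.9 and then 16.0, 13.1 and 15.1 CPM. The groups did not overlap, with knockdown culture 2 the lowest. Its log2 fold change was -0.45 (SE 0.12, 95% interval -0.71 to -0.18), with an edgeR adjusted p of 0.106 without the block, 0.0261 with it and an FDR of 0.0272 in the authors' deposited table. HK1 overlapped between the groups at a log2 fold change of -0.11 (edgeR adjusted p = 0.582).

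Phosphofructokinase makes fructose 1,6-bisphosphate, the step that commits sugar to glycolysis, from subunits named for muscle (PFKM), liver (PFKL) and platelet (PFKP). PFKM (chr12:48105139-48146404, plus strand), the most abundant of them per length at 53.0 RPKM without knockdown, read 190.3, 229 and 189 and then 165, 171 and 159 CPM. PFKP (chr10:3066333-3137712, plus strand), at 9.64 RPKM, read 29.5, 30.5 and 25.9 and then 20.8, 24.3 and 16.4 CPM. Both genes were lower in every knockdown culture, and PFKP was the more spread. The log2 fold change was -0.30 (SE 0.09) for PFKM, with an edgeR adjusted p of 0.150 without and 0.0102 with the block. For PFKP it was -0.49 (SE 0.14), with an edgeR adjusted p of 0.148 without and 0.00712 with the block. PFKL overlapped between the groups, from 99.8 to 121 CPM with knockdown and from 109.4 to 115.5 CPM without it (log2 fold change -0.03, edgeR adjusted p = 0.916). PFKM shares 628 exonic bases with SENP1 on the other strand, which read 35.9 CPM without and 38.0 CPM with knockdown (log2 fold change 0.08). The strand setting of the counting is not given in the sources used here.

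The PFKFB enzymes make and break fructose 2,6-bisphosphate, the strongest activator of phosphofructokinase. PFKFB2 (chr1:207034366-207081024, plus strand) read 54.5, 60.9 and 55.6 and then 41.8, 46.3 and 43.4 CPM. The groups lay well apart, and the drop from no knockdown to knockdown was alike in the 3 pairs of the same number, at -0.38, -0.40 and -0.36 on the log2 scale. PFKFB2 had the lowest adjusted p of the 33 genes in both fits, 0.0614 without and 0.00594 with the block (edgeR, log2 fold change -0.38, SE 0.08), and an FDR of 0.00854 in the authors' deposited table. It shares 315 exonic bases with YOD1 on the other strand, whose log2 fold change was 0.08. PFKFB3, the family member with the highest ratio of kinase to phosphatase activity, overlapped between the groups at 10.3 ± 2.17 and 9.25 ± 1.96 CPM (mean ± SD, n = 3 each; log2 fold change -0.14, edgeR adjusted p = 0.800). PFKFB4 overlapped as well, at 18.5 ± 0.78 and 19.5 ± 1.77 CPM (log2 fold change 0.08, edgeR adjusted p = 0.806).

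Of the remaining enzymes down to the triose phosphates, TPI1, which interconverts the 2 triose phosphates, read 256, 266 and 260.1 and then 237, 246 and 236 CPM. Its groups did not overlap, but the difference was small, at -0.12 on the log2 scale (SE 0.06, edgeR adjusted p = 0.447 without and 0.215 with the block). GPI, which turns glucose 6-phosphate into fructose 6-phosphate, and the aldolases ALDOA and ALDOC, which split fructose 1,6-bisphosphate, overlapped between the groups with log2 fold changes of -0.04, -0.10 and 0.04. Counting the phosphofructokinase subunits, 6 of these 7 upper enzymes had a log2 fold change below 0, as did 6438 of all 12768 genes. Among the 6, GPI and PFKL changed sign when certain single cultures were left out.

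**Figure D2:**
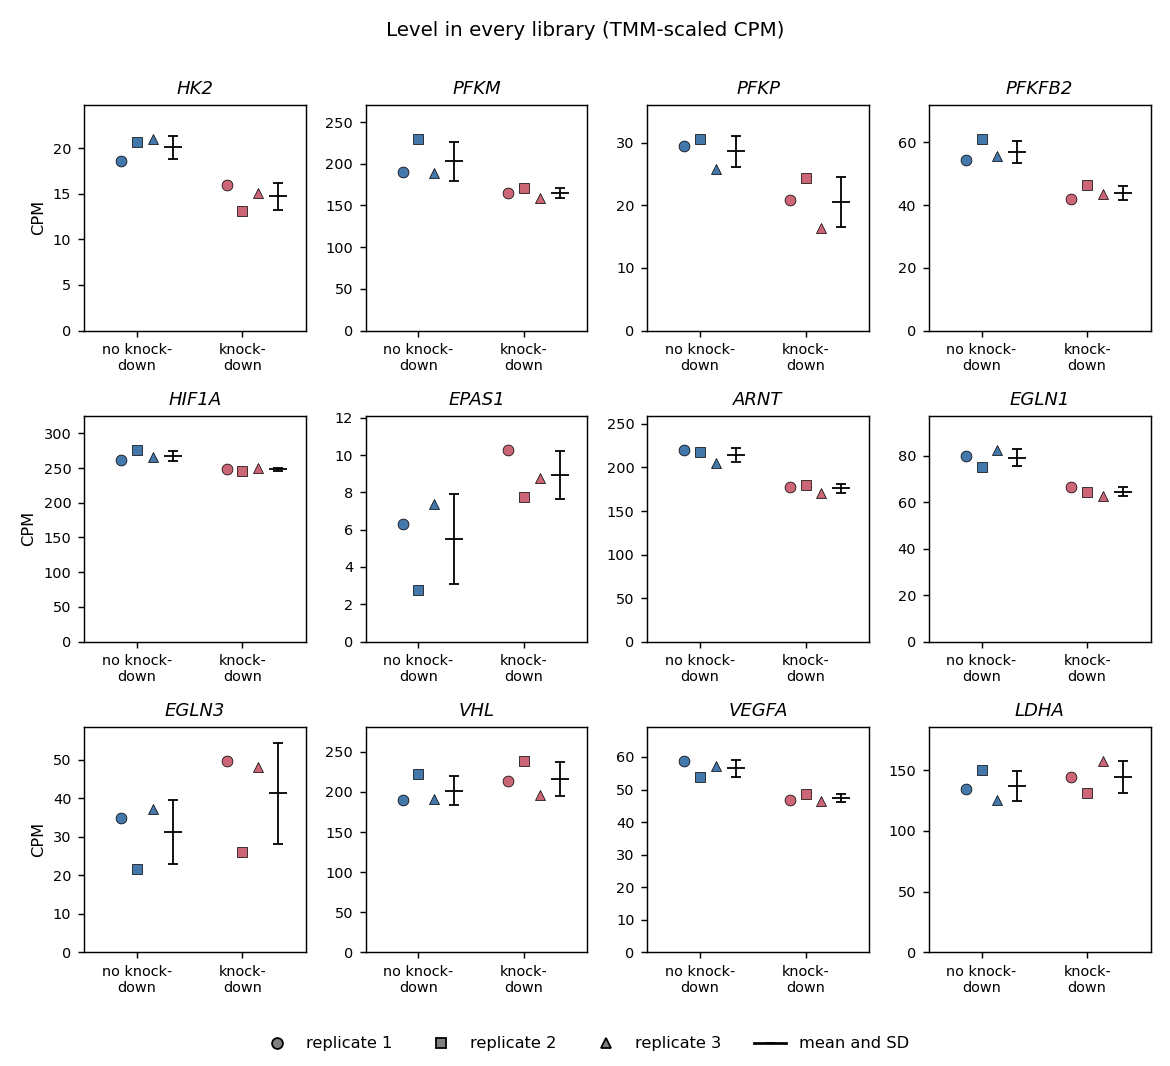
CPM of 12 of the genes in every culture, with symbols for replicate numbers and the mean ± SD (n = 3) beside each group; every axis starts at 0. HK2, PFKM, PFKP, PFKFB2, ARNT, EGLN1 and VEGFA have all knockdown points below all no-knockdown points, EPAS1 has them above, and EGLN3, VHL and LDHA overlap.

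The enzymes from glyceraldehyde 3-phosphate to pyruvate had log2 fold changes above 0, as did 6330 of all 12768 genes. None of these enzymes was called in either fit of all 6 cultures. Without pair 2 the fit with the block called PGK1 higher, and without pair 3 it gave -6e-04 for PKM. GAPDH stood highest of all 33 genes per length, at 569 RPKM without knockdown, followed by PKM at 239, ALDOA at 183, ENO1 at 173 and PGK1 at 154 RPKM, and EPAS1 was lowest at 1.06 RPKM. GAPDH, which oxidises glyceraldehyde 3-phosphate, read 1076 ± 17.9 CPM without and 1095 ± 25.7 CPM with knockdown (mean ± SD, n = 3 each). Its log2 fold change was 0.03, with a 95% interval of -0.13 to 0.18. PGK1 and PKM, which make ATP, ENO1, which makes phosphoenolpyruvate, and PGAM1, the mutase between them, had log2 fold changes of 0.10, 0.02, 0.06 and 0.23 (edgeR adjusted p from 0.480 to 0.933). All 5 overlapped between the groups. Reads of these genes can be shared with pseudogenes, of which the annotation names 62 after GAPDH and 13 after PGAM1. The 14 glycolysis enzymes from the hexokinases to PKM, without the PFKFB enzymes, together took 0.484%, 0.456% and 0.468% of reads in no-knockdown cultures 1, 2 and 3 and 0.472%, 0.463% and 0.454% in the knockdown cultures, so their total overlapped.

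At the end of the pathway, LDHA, the lactate dehydrogenase subunit that favours pyruvate reduction to lactate, read 134, 150.2 and 126 and then 144, 131 and 157 CPM. The groups overlapped (log2 fold change 0.08, SE 0.09, edgeR adjusted p = 0.762), and the sign differed between pairs, at 0.10, -0.20 and 0.32. LDHB, the subunit with the opposite preference, overlapped at 215 ± 7.96 and 198 ± 12.4 CPM (log2 fold change -0.12, edgeR adjusted p = 0.506). The kinases PDK1 and PDK3, which switch off pyruvate dehydrogenase, overlapped with log2 fold changes of -0.20 and -0.0051.

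Within an isozyme family the share of each member in the summed level per length does not depend on the family's total. In 6 of the 9 families, 12 of 20 shares did not overlap between the groups. Shares within a family sum to a fixed total, so those of HK1 and HK2, for example, mirror each other and are not separate results. No matching share over all genes was computed. HK2 made up 7.49 ± 0.93% of the hexokinase level without and 5.98 ± 0.43% with knockdown (mean ± SD, n = 3 each), a difference of -1.52 percentage points that became -0.99 without no-knockdown culture 3. PFKP went from 10.1 ± 0.49% to 8.35 ± 1.0% of the phosphofructokinase level and PFKL from 34.4 ± 2.6% to 39.0 ± 1.0%. The shares depend on the length used: with the longest transcript as length, PFKP went from 12.1% to 10.3% and PFKL from 21.8% to 25.4%. These are shares of the same sum, so a lower share of one member raises those of the others. PFKFB2 made up 45.7 ± 2.2% and then 39.0 ± 1.4% of the PFKFB level, and PFKFB4 38.8 ± 1.2% and then 45.5 ± 2.9%. LDHA took 28.4 ± 1.5% of the lactate dehydrogenase level without and 31.3 ± 0.71% with knockdown, although its own level overlapped. In a two-sided exact permutation test, 3 against 3 cultures cannot give a p below 0.1, and that was the p of each of the 12 (Benjamini-Hochberg adjusted over the 20 shares, 0.167).

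**Figure D3:**
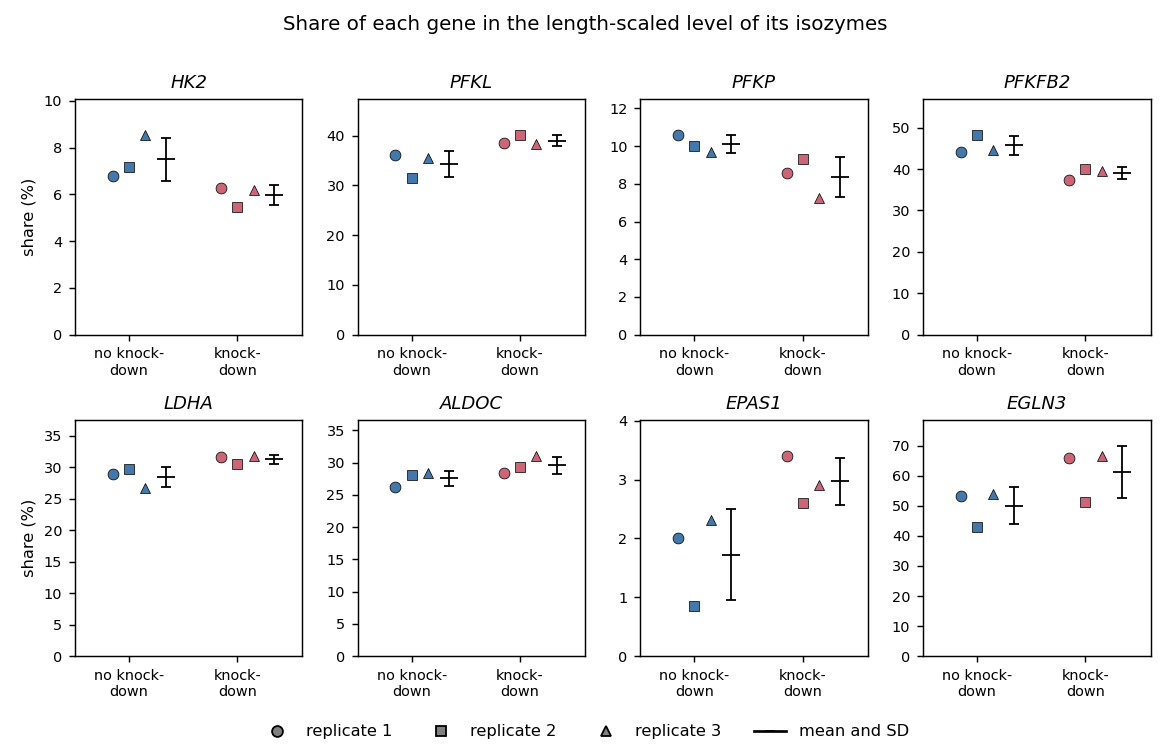
Share of 8 genes in the summed length-scaled level of their own isozymes, in percent, by culture, with the mean ± SD (n = 3). HK2, PFKP and PFKFB2 have lower and PFKL, LDHA, ALDOC and EPAS1 higher shares in every knockdown culture than in any no-knockdown culture, and EGLN3 overlaps.

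Of the HIF subunits, HIF1A and ARNT read lower and EPAS1 higher in every knockdown culture, and the difference between these subunits was not tested. HIF1A (chr14:61695513-61748259, plus strand), the widely expressed alpha subunit, read 262, 276 and 266 and then 248, 246 and 251 CPM. The groups did not overlap, yet they differed by -0.11 on the log2 scale (SE 0.06, edgeR adjusted p = 0.495 without and 0.284 with the block). ARNT (chr1:150809705-150876768, minus strand), a beta subunit with which HIF alpha binds DNA, read 219.7, 218 and 205 and then 178, 179.8 and 170.4 CPM. The groups lay apart, and the 3 pairs differed by -0.30, -0.28 and -0.26 on the log2 scale. Its log2 fold change was -0.28 (SE 0.07), with an edgeR adjusted p of 0.0774 without the block, 0.00697 with it and an FDR of 0.0332 in the authors' deposited table. ARNT2, a related beta subunit named after its values were seen, read 40.45 CPM without and 40.2 CPM with knockdown. Its groups overlapped (log2 fold change -0.0097, edgeR adjusted p = 0.982 without the block).

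EPAS1, which encodes HIF-2 alpha (chr2:46293667-46386703, plus strand), read 6.33, 2.76 and 7.40 and then 10.3, 7.74 and 8.80 CPM. Every knockdown culture was above every no-knockdown culture, no-knockdown culture 2 was far below the rest with 27 reads, and the pairs differed by 0.70, 1.49 and 0.25 on the log2 scale. Its log2 fold change was 0.71 with a wide 95% interval of 0.07 to 1.36 (edgeR adjusted p = 0.310 without and 0.0330 with the block). Leaving out no-knockdown culture 2 alone lowered it to 0.39 in the fit without the block (edgeR adjusted p = 0.357). Without the pair of number 2 the fit with the block gave 0.48 (edgeR adjusted p = 0.0504), and without pair 3 it gave 1.00 (0.00813). EPAS1 made up 1.72 ± 0.78% of the summed HIF1A and EPAS1 level per length without and 2.97 ± 0.40% with knockdown (n = 3 each), a difference of 1.24 percentage points that became 0.804 without no-knockdown culture 2.

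Among the oxygen sensors, EGLN1 (chr1:231363751-231425044, minus strand), the main prolyl hydroxylase acting on HIF alpha in normal oxygen, read 79.9, 75.2 and 82.3 and then 66.5, 64.2 and 62.8 CPM. The groups did not overlap. Its log2 fold change was -0.30 (SE 0.08), with an edgeR adjusted p of 0.0954 without the block, 0.0199 with it and an FDR of 0.0421 in the authors' deposited table. EGLN3 (chr14:33924231-34462774, minus strand), a hydroxylase that HIF itself induces, read 34.8, 21.7 and 37.3 and then 49.6, 26.0 and 48.1 CPM. Here the groups overlapped, because culture 2 was the lowest of both groups, while within each pair of the same number EGLN3 was higher after knockdown, by 0.51, 0.26 and 0.37 on the log2 scale. Its log2 fold change of 0.41 had an SE of 0.28 and an edgeR adjusted p of 0.577 without the block (the fold change was 0.20 without no-knockdown culture 2 and 0.65 without knockdown culture 2), and an SE of 0.09 and an adjusted p of 0.0129 with it (0.212 and 0.0788 with the block but without pair 1 or 3). EGLN3 therefore passed only where cultures of the same number were compared, and the labels do not say what a shared number stands for.

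VHL, the substrate receptor of the ligase that degrades HIF alpha, read 190.3, 222 and 191 and then 214, 238 and 196 CPM. The groups overlapped, and VHL passed in neither fit (log2 fold change 0.10, SE 0.09, edgeR adjusted p = 0.683 and 0.335). The share of EGLN3 in the summed EGLN1 and EGLN3 level per length was 50.1 ± 6.2% without and 61.4 ± 8.6% with knockdown (mean ± SD, n = 3 each), and it overlapped (exact permutation p = 0.3).

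Genes that HIF is known to induce gave no common direction. VEGFA, the vascular growth factor, read 58.7, 53.8 and 57.1 and then 46.7, 48.8 and 46.5 CPM. Its groups did not overlap, with a log2 fold change of -0.26 (SE 0.08), but it passed in neither fit (edgeR adjusted p = 0.168 without and 0.0575 with the block). KDELR3, a receptor that returns proteins to the endoplasmic reticulum, was also lower in every knockdown culture, at 4.86, 5.12 and 4.27 and then 4.08, 3.36 and 4.05 CPM (log2 fold change -0.31, SE 0.19, edgeR adjusted p = 0.506). BNIP3, which promotes mitophagy and after which the annotation names 39 pseudogenes, overlapped at a log2 fold change of 0.0045. The collagen prolyl hydroxylase subunits P4HA1 and P4HA2 overlapped as well, at 0.02 and -0.13. ANKRD37, at 1.76 to 3.39 CPM in the 6 cultures, overlapped too (log2 fold change 0.05, SE 0.31), and 909 of its exonic bases lie opposite UFSP2. UFSP2 read far higher, at 40.9 CPM without and 35.7 CPM with knockdown (log2 fold change -0.19). Whether UFSP2 reads enter the ANKRD37 count was not tested.

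**Figure D4:**
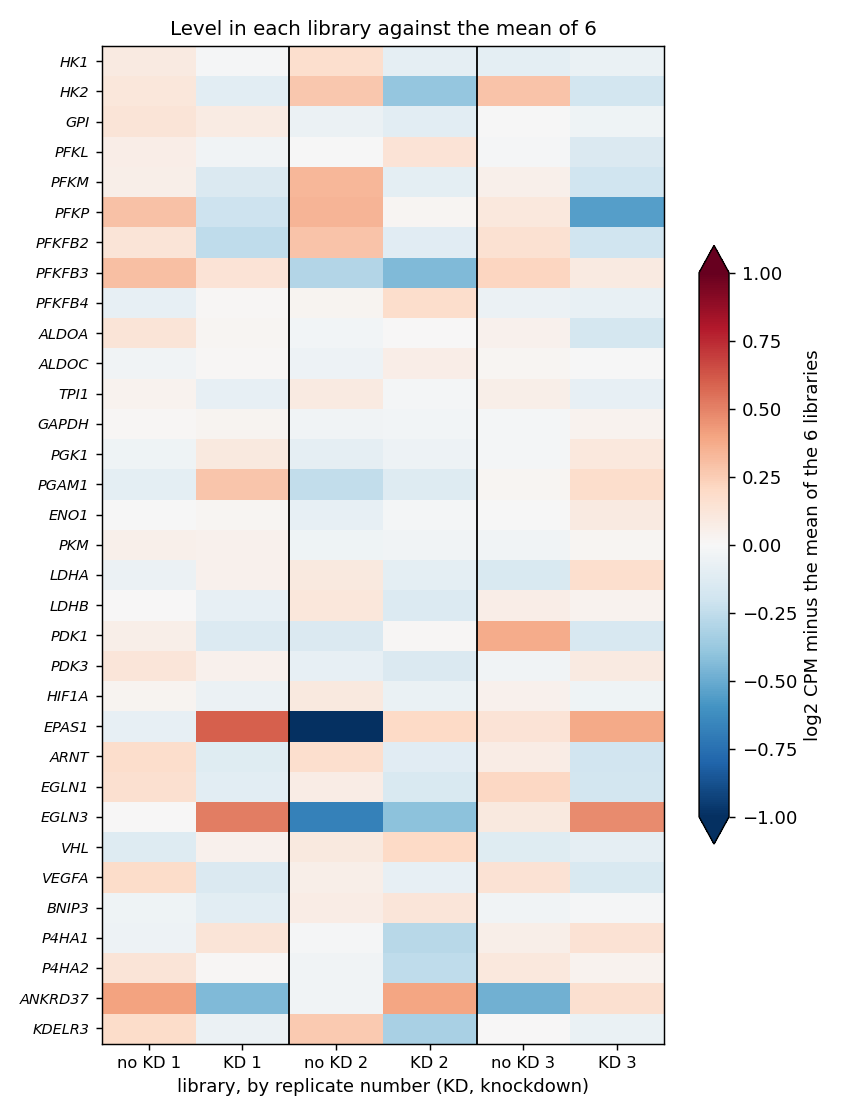
Log2 CPM of each of the 33 genes in each culture minus its mean over the 6, with cultures ordered by replicate number (KD, knockdown). The color scale is limited to 1 in either direction. EGLN3 and PFKFB3 are low in both cultures numbered 2. HK2, PFKM, PFKP, PFKFB2, ARNT, EGLN1, GPI, PFKFB3, TPI1, LDHB, HIF1A, VEGFA, P4HA2 and KDELR3 are lower in the knockdown culture of every pair. No matching share over all genes was computed for this.

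A sequence in 3′ untranslated regions was also looked up, the heptamer TTCCCTA, which came from an earlier search of these same libraries and is therefore no independent evidence. It occurred in 3 of the 33 genes, HK2, TPI1 and VHL, and in 13.4% of 11135 genes of the table. Its sites in HK2 (chr2:74892404-74892410, plus strand) and VHL (chr3:10151400-10151406, plus strand) are shown with 10 bases on either side, because HK2 fell in the fit with the block and VHL did not pass.
HK2: gtccatgtgcTTCCCTAggctgagctg
VHL: gttctactccTTCCCTAatagcttttt
The other 5 genes that fell with the block did not carry it.

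Other genes of the same pathways came from 2 lists. Of 51 other genes of glucose, glycolysis and pyruvate metabolism, 35 were in the table, and 3 fell and 0 rose in the edgeR test without the block, where 1.14% and 0.337% of all genes did. With the block 5 fell, PCK2 and TXNIP being the others, or 14.3% against 5.1% of all genes, and 1 rose, or 2.86% against 3.21%. SLC16A1, the lactate transporter MCT1, read 100.7, 109 and 107 and then 76.5, 82.0 and 81.2 CPM. PGM2, a phosphoglucomutase that also acts on pentose phosphates, read 152, 153 and 158 and then 116, 111 and 122 CPM. GPD2, the mitochondrial glycerol phosphate dehydrogenase, read 70.1, 69.8 and 64.5 and then 53.9, 53.3 and 51.8 CPM. None of these genes overlapped between the groups, and their log2 fold changes were -0.40, -0.41 and -0.36, with edgeR adjusted p values of 0.0277, 0.0204 and 0.0483. SLC16A7, the related transporter MCT2, was named after its values were seen because it went the other way, at 44.2, 45.6 and 42.7 and then 54.8, 62.3 and 57.1 CPM (log2 fold change 0.39, edgeR adjusted p = 0.0501 without and 0.0052 with the block). SLC2A1, the glucose transporter GLUT1, was likewise named afterwards: it had a log2 fold change of -0.22 and passed in neither fit (edgeR adjusted p = 0.350 and 0.130).

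Of 57 other genes of the hypoxia pathway, 46 were in the table, and 0 fell and 1 rose without the block, where 1.14% and 0.337% of all genes did. With the block 6 fell, or 13.0% against 5.1% of all genes, and 4 rose, or 8.7% against 3.21%. The gene that rose in both fits was CITED2, which HIF induces and which competes with HIF alpha for the coactivators EP300 and CREBBP. It read 234.7, 221 and 226 and then 309.9, 323 and 297 CPM (log2 fold change 0.45, SE 0.07, edgeR adjusted p = 0.0138). Its groups lay apart by more than their spread. With the block, DDIT4, ERO1A, STC2, RORA, TFRC and RRAGD fell and EP300, CREBBP and KDM5B rose beside CITED2, among them a log2 fold change of -0.43 for DDIT4, an inhibitor of mTORC1, and of 0.29 for KDM5B, a histone demethylase. STC2, EP300 and CREBBP overlapped between the groups, and the other 7 did not. The calls of CITED2, SLC16A1, PGM2 and GPD2 in the fit without the block were lost when no-knockdown culture 1 or 3 or knockdown culture 1 or 3 was left out. CITED2 then had an edgeR adjusted p of 0.0612, 0.103, 0.101 and 0.0746. GPD2 also lost its call without no-knockdown culture 2 (edgeR adjusted p = 0.0536), with DESeq2 size factors (0.0544), with library totals (0.0534) and without the robust fit (0.0509).

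**Figure D5:**
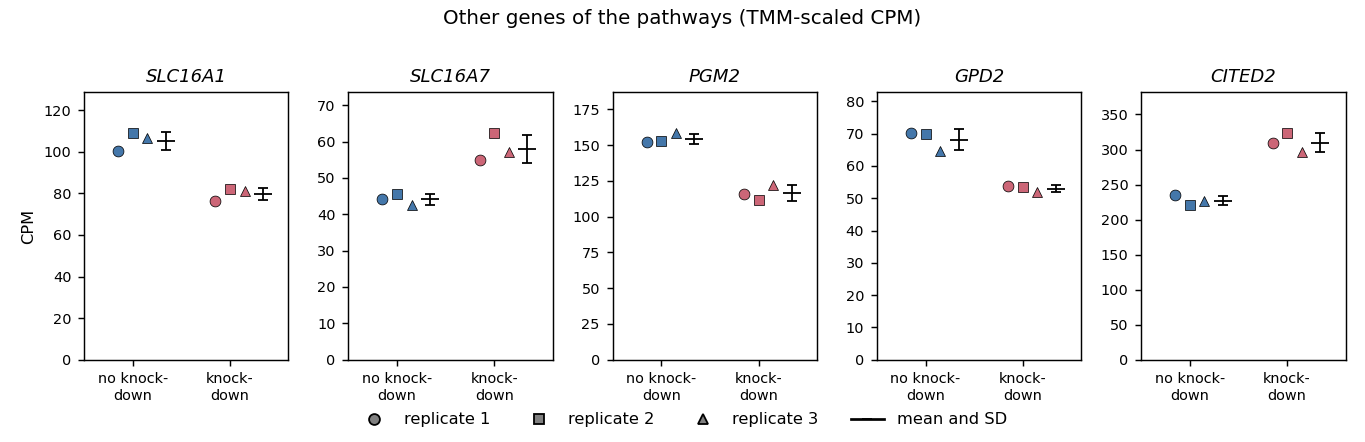
CPM of 5 other genes of the pathways in every culture, with the mean ± SD (n = 3) beside each group and axes from 0. SLC16A1, PGM2 and GPD2 are lower and SLC16A7 and CITED2 higher in every knockdown culture than in any no-knockdown culture.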

How the data were processed

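RNA-seq was made from the 3 knockdown and 3 no-knockdown LNCaP cultures, and the samples were grouped by the treatment in their labels. The submitters' processing notes list STAR 2.5, Subread 1.6.5 with featureCounts, bcl2fastq, edgeR 3.20.8 and the build hg38, with no settings. No source used here gives the counting annotation or strand setting, and the deposited coordinates overlap the GENCODE 29 position of only 7 of the 33 genes, so positions are those of GENCODE 29. The authors deposited raw counts per gene, log2 CPM, log2 fold changes, p-values and FDR. Every gene of the table exceeds 1 CPM in at least 3 libraries.

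The counts were tested with edgeR 4.0.16 (R 4.3.3; TMM, robust quasi-likelihood, group only), with Benjamini-Hochberg adjustment over all 12768 genes. Standard errors come from the same fits, intervals are 95%, and levels per length use the deposited gene length. The scripts were tested on simulated data. Same-numbered cultures deviated together over all genes (correlations of 0.339, 0.453 and 0.169 for numbers 1, 2 and 3). For 2 pairs of other numbers, both of cultures 1 and 3, the values were 0.232 and 0.199, above that of number 3. Since each same-numbered value was above 0.1, the fit with the number as a block is given beside a result where it changes the call. Alternatives were DESeq2 1.42.0, limma-voom (limma 3.58.1), other scalings, a filter at 5 CPM and leaving out cultures. Values in every culture are given for genes past a threshold or not overlapping between groups, and for HIF1A, EPAS1, VHL and LDHA. From the lists of other pathway genes, those past the threshold are named. The genes, the lists and this rule were chosen with earlier results of these data known. The promoter and 3′ UTR searches were chosen after seeing the data.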

Additional observations from a re-analysis of the deposited data

How the results depend on the processing

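Over 526 comparisons of the 33 genes with an alternative, 469 kept direction and side of the threshold, 28 passed it in the alternative alone, 29 changed sign and 0 lost a call, since none was called without the block. The number called stayed at 0 with DESeq2, limma-voom, DESeq2 size factors, library totals, the 5 CPM filter and the fit without robust estimation. With the replicate block it was 8, the block changing no call of the remaining genes, and with the block but without pair 1, 2 or 3 it was 3, 12 and 2; leaving out single cultures without the block gave 0 to 2. For the other glycolysis genes (3 called), DESeq2 gave 5, the block 6, the block without pair 1 or 2 gave 5 and 11, and leaving out single cultures 0 to 5. For the other hypoxia genes (1 called), DESeq2 gave 4, the block 10, the block without pair 1, 2 or 3 gave 5, 14 and 4, and leaving out single cultures 0 to 4. Over all genes (189 called), DESeq2 gave 303, the block 1061, the block without pair 1, 2 or 3 gave 455, 2391 and 397, and leaving out single cultures 24 to 445.

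The 29 sign changes fell on 9 genes, none of them called in either fit of all 6 cultures, and the cause was not tested. PFKL took 0.0152 and 0.0211 with the block without pair 1 or 3, and without pair 3 PKM took -6e-04 and LDHA -0.048. PDK3 took 0.0034 with DESeq2 and with its size factors, 0.0014 with the 5 CPM filter, and 0.0448 and 0.0188 with the block without pair 1 or 2. BNIP3 took -0.0215 and -0.0071 with the block without pair 2 or 3, P4HA1 -0.0745 and -0.0361 without pair 1 or 3, and ANKRD37 -0.1509 and -0.2005 without pair 2 or 3. Leaving out single cultures gave log2 fold changes of -0.0865 to 0.0115 for GPI, -0.105 to 0.0369 for PFKL, -0.3086 to 0.0154 for PFKFB3, -0.0547 to 0.0603 for PDK3, -0.0577 to 0.0665 for BNIP3, -0.0558 to 0.1425 for P4HA1 and -0.1349 to 0.329 for ANKRD37. Among the differences in isozyme shares, leaving out a culture or taking the longest transcript as length moved by over 1.5 times those of HK1 and HK2 (to 0.99 and -0.99 points), ALDOA and ALDOC (to -1.33 and 1.33), HIF1A and EPAS1 (to -0.804 and 0.804), P4HA1 and P4HA2 (to 0.761 and -0.761), PFKM (to -1.37), PDK1 and PDK3 (from 0.354 to 4.61 for PDK3), and PFKFB3 (-1.91 to 2.13), the last alone in changing sign. Within pairs of the same number, the smallest p an exact sign-flip permutation can give is 0.25.

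The median standard error of the 33 log2 fold changes was 0.0845 without and 0.0718 with the block, beside 0.111 and 0.0915 over all genes. ANKRD37 rests on 14 to 44 reads a library, KDELR3 on 34 to 63 and EPAS1 on 27 to 137. Scaling hardly moved the centre: over all genes the middle log2 fold change lay at -0.0021 with TMM, -0.0061 with library totals and 0.0063 with DESeq2 size factors.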

Other observations

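Cultures numbered 2 stood apart from those numbered 1 and 3 in some of these genes in both groups, a comparison chosen after seeing the data. By a difference of more than 0.3 on the log2 scale in the same direction in both groups, PFKFB3 and EGLN3 were lower in culture 2 (6.06% of the 33 genes, against 7.32% of all genes) and none was higher (0%, against 2.78%). EGLN3 lay 0.73 below the mean of cultures 1 and 3 without knockdown and 0.91 below it with knockdown, and PFKFB3 0.56 and 0.57 below. Among the 46 other hypoxia genes, EP300, CREBBP, CA12, IGFBP3, TMEM45A and HMOX1 were lower in culture 2 (13.0%) and WSB1 was higher (2.17%). IGFBP3, which encodes a binding protein of insulin-like growth factors, read 21.1, 7.89 and 21.7 CPM in no-knockdown cultures 1, 2 and 3 and 24.0, 6.99 and 26.8 CPM in the knockdown cultures. CA12, a carbonic anhydrase of the cell surface, read 102, 59.5 and 110.4 and then 116, 63.7 and 111 CPM. In the other direction, the androgen-regulated luminal gene KLK3 read 153, 250.5 and 159 and then 109, 199 and 102 CPM.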
